A study of Homo sapiens with 6 samples.

Results

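The human genes named ZNF followed by a number form the largest set of zinc finger genes, and 219 of them were transcribed well enough here to be described. They were chosen from the deposited tables by name and by level: of 300 such symbols among 12438 gene symbols, 219 had a gene body read density of 0.01 or more on average over the 3 groups, and 81 did not. Where a symbol had several transcript rows (86 members), the row with the highest mean was used. The values came from GRO-seq, a nuclear run-on assay in which engaged RNA polymerases extend their transcripts in isolated nuclei, so that the reads report ongoing transcription and not the amount of stored RNA. All 6 samples were A375, one established human malignant melanoma cell line, treated for 48 h with the vehicle DMSO, with 25 µM leflunomide or with 25 µM A771726, with 2 samples per group. A771726 is the active metabolite of leflunomide and inhibits DHODH, an enzyme of pyrimidine synthesis. The series title sets the question around DHODH inhibition and HEXIM1 in melanoma. Because the level chose the members, their density is a description, and just inside the minimum stood ZNF567 with a mean of 0.01003 and just outside it ZNF737 with 0.00998.

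Most ZNF proteins carry rows of C2H2 zinc fingers, small zinc-holding loops that read DNA, joined by a conserved linker. Many also carry a KRAB box, a domain that recruits TRIM28 and, through it, the histone methyltransferase SETDB1, and such proteins are known for silencing transposable elements and other genes. The genes often lie side by side in clusters, mainly on chromosome 19 (background, not measured here), and close copies share sequence, so reads could be split between copies. The sources used here do not say how reads with several matches were counted.

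The quantities used were the read density in a promoter window, the read density in the gene body, and the traveling ratio, which is the promoter density divided by the gene body density and is high where polymerase sits near the start. The labels and headers do not state the scale of the densities. The authors deposited group means only. The values of both libraries behind each mean were recovered from the means and the mean ratio, for 135 of the 219 members and 4759 of all genes at the same minimum in all 6 libraries. Recovery needs reads at the promoter in every group, so these 135 are not a random part of the members. The libraries could not be matched to the labels' replicate letters. A single promoter read was worth 0.0438 or 0.0520 in the DMSO libraries, 0.0347 or 0.0376 under leflunomide and 0.0241 or 0.0313 under A771726. The members' median promoter density in DMSO was 0.0479, so promoter densities and traveling ratios of single members rest on few reads, while the total depth of the libraries is unknown. Nothing in the labels says that the samples of a group were separate cultures, so p-values measure only the spread between these samples. Melanocyte lineage genes were read in these libraries, with SOX10 at a gene body density of 0.329 in DMSO, 0.330 under leflunomide and 0.273 under A771726. Of the other markers, MITF, PMEL, S100A1, AXL and NGFR were at the minimum and MLANA was under it, as were CDH1 and PECAM1 of other cell types, while TYR, DCT, S100B, SOX9, PTPRC, EPCAM and ALB were not analysed here.

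In DMSO the gene body density of the members had a median of 0.0248 and ran from 0.0056 to 0.216. All 8279 genes at the same minimum had a median of 0.0323. The densest member was ZNF513, with 0.190 and 0.241 in the DMSO libraries, 0.117 and 0.163 under leflunomide and 0.142 and 0.0967 under A771726. Both DMSO libraries of ZNF513 lay above all 4 libraries with a compound, and the 2 compounds overlapped. ZNF692 followed, with 0.129 and 0.177 in DMSO, 0.143 and 0.103 under leflunomide and 0.072 and 0.128 under A771726, so that its A771726 libraries lay just below those of DMSO and its leflunomide libraries overlapped both. ZNF79 had 0.142 and 0.115 in DMSO, 0.0817 and 0.0752 under leflunomide and 0.0696 and 0.0586 under A771726. Its 3 groups did not overlap and stepped down in that order. ZNF324, by contrast, had 0.0995 and 0.098 in DMSO, 0.101 and 0.115 under leflunomide and 0.0703 and 0.112 under A771726, and its leflunomide libraries were just above those of DMSO. The remaining dense members were ZNF580, ZNF697, ZNF687, ZNF672, ZNF526 and ZNF524, with means over the groups between 0.0713 and 0.108.

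**Figure D1:**
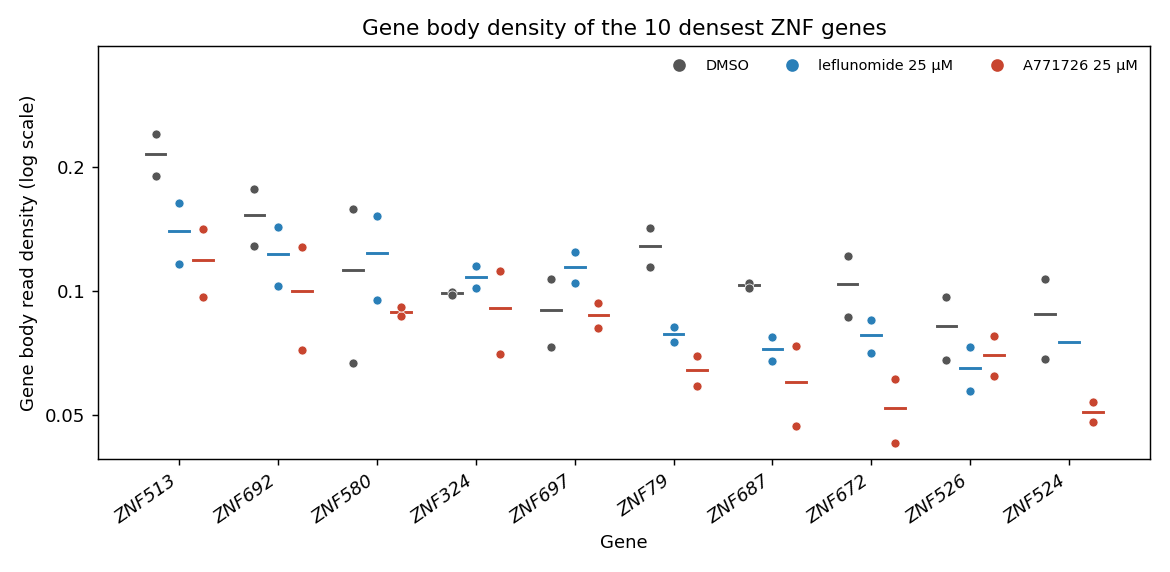
Gene body read density (log axis) of the 10 ZNF genes with the highest mean, with points for the recovered libraries and a bar for the deposited group mean. ZNF513, ZNF79, ZNF687 and ZNF672 are among the genes with both DMSO points above all points of both compounds. The A771726 points of ZNF324 and ZNF580 overlap those of DMSO. ZNF524 under leflunomide shows the mean only, since its libraries were not recovered.

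The promoters of the members were searched for short letter strings in RefSeq's 300 bases around each start (250 before to 50 after, GRCh38.p14, both strands), which 185 members had. The ETS core CCGGAA, the letters that ETS family factors bind, stood in 103 of the 185 (55.7%) and in 29.9% of 5260 promoters of all genes at the same minimum. The CCAAT box, CCAAT, stood in 48.6% of the members' promoters and 37.5% of all. A GC box, GGGCGG, stood in 64.9% and 69.5%, and a TATA box, TATAAA, in 3.24% and 5.74%. The remaining strings were rarer: the CRE TGACGTCA stood in 3.78% of members and 3.06% of all, the E-box CACGTG in 8.65% and 10.5%, the consensus letters of NRF1 in 3.24% and 2.21%, the YY1 string AAGATGGCG in 2.7% and 3.84%, and the ZNF143 string ACTACAATT in 1.62% and 0.589%. The median GC content was 63.3% for members and 65.3% for all. These are matches of letters and not measured binding. The promoters shown are those of a dense member with similar densities in the groups (ZNF324) and of members whose libraries stepped down over the groups (ZNF79, ZNF107), and they were chosen after their values were seen. Each runs over the 250 bases before the start, 5′ to 3′ on the plus strand, with ETS and CCAAT letters of either strand in capitals, at chr19:58466830-58467079, chr9:127424132-127424381 and chr7:64665883-64666132.
ZNF324: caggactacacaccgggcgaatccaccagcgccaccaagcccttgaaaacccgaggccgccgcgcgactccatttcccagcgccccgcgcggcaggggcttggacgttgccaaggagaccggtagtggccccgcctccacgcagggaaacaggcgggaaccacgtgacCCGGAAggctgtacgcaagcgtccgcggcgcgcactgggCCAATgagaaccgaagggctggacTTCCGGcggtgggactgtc
ZNF79: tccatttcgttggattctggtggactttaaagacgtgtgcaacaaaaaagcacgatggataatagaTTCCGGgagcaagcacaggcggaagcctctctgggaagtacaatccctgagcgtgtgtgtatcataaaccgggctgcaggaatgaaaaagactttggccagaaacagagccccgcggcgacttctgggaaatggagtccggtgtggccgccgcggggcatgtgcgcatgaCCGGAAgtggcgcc
ZNF107: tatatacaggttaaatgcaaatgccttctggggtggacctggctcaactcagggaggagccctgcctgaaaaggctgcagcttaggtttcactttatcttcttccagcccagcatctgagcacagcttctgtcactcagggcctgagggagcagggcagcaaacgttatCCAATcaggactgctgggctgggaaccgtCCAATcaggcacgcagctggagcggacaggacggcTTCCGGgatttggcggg
Each has ETS letters close to the start, beginning 19, 14 and 17 bases before it. The 103 members with the ETS letters had a median log2 change of gene body density for A771726 against DMSO of -0.69, and the 82 without of -0.48. For A771726 against leflunomide these were -0.48 and -0.49, and for leflunomide against DMSO -0.15 and -0.03. The 90 members with CCAAT had -0.58 for A771726 against DMSO and the 95 without it -0.64. These splits were not tested.

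Under leflunomide the members' gene body density stayed close to that in DMSO. The median log2 change of the group means was -0.10, beside -0.06 over all genes, computed as log2(value + 0.0022), which understates the change of low genes. Of the 219 members, 3 were higher by 2-fold or more and 9 were lower by as much, where 1.84% and 4.37% of all genes were. ZNF619 was highest at 1.30, with library densities of 0.0033 and 0.0079 in DMSO and 0.0184 and 0.0157 under leflunomide. Both DMSO values were under the minimum of 0.01, so ZNF619 became a member only through its compound groups. Its changes, intervals and p-values against DMSO are therefore a description of a member picked by those values. ZNF358 (1.25) and ZNF641 (1.10) came next, and their DMSO libraries could not be recovered. ZNF511 was lowest at -1.56, with 0.0378 and 0.027 in DMSO and 0.006 and 0.013 under leflunomide. After it stood ZNF57 (-1.56), ZNF296 (-1.46) and ZNF181 (-1.26). In the recovered libraries, 12 of 135 members had both leflunomide libraries above both DMSO libraries and 29 had both below, where 14.3% and 21.1% of all genes did. limma, fitted over all 4759 genes with Benjamini-Hochberg adjustment, called none of the 135 members (0.0% of all genes were called), and the smallest adjusted p of a member was 0.908. At an unadjusted p under 0.05 stood 4 members (2.96%), beside 4.96% of all genes. Over the 101 members with the library known there were 3 (2.97%), beside 5.05% of all such genes. After the libraries were centred on their medians there were 5 (4.95%), beside 5.4%. The median limma log2 change of these 101 members was -0.18 uncentred. It was -0.09 without the first DMSO library, -0.20 without the second, -0.13 without the first leflunomide library and -0.14 without the second. For ZNF511 the limma log2 change was -1.61 (95% interval -2.82 to -0.40) and for ZNF619 it was 1.37 (0.34 to 2.39), both with an adjusted p of 0.908.

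Under A771726 most members had a lower gene body density than with DMSO, as did most genes. The median log2 change was -0.62 over the members and -0.52 over all genes. The scaling between libraries is not given. A single promoter read was worth less under A771726 (0.0241 or 0.0313) than in DMSO (0.0438 or 0.052) or under leflunomide (0.0347 or 0.0376). Whether the scale has a part in the lower densities under A771726, against either group, was not tested. Lower by 2-fold or more were 42 members and higher by as much 3, where 18.6% and 0.833% of all genes were. Under the minimum of 0.01 stood 49 members under A771726, against 6 with DMSO and 8 under leflunomide. Members under it in a group met it through the other groups, so their changes describe members picked partly by those values. The shares of all genes under the minimum were not counted by group. At the minimum in every group were 160 of the 219 members and 6856 of all 8279 genes. Over the 160 members at the minimum in every group the median was -0.52, and over the 6856 of all genes that met the same condition it was -0.49; the condition leaves out genes that were low under A771726. Relative to the median of all genes, 96 of the 219 members were higher, and the members' median was -0.10.

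The largest differences in this contrast belonged to ZNF304 (-2.34), ZNF530 (-2.29), ZNF22 (-1.92), ZNF498 (-1.74), ZNF205 (-1.71) and ZNF581 (-1.67). ZNF304, a KRAB zinc finger gene, had library densities of 0.0116 and 0.0358 in DMSO, 0.0156 and 0.0179 under leflunomide and 0.0025 and 0.0033 under A771726. Its A771726 libraries lay below all others, while those of DMSO and leflunomide overlapped. ZNF498, now named ZSCAN25, had 0.0434 and 0.055 in DMSO, 0.0321 and 0.0354 under leflunomide and 0.0119 and 0.0145 under A771726, with no overlap between any 2 groups. ZNF107 had 0.0276 and 0.0236, then 0.0144 and 0.0185, then 0.0061 and 0.0079 in the same order, again without overlap. ZNF121 had 0.0586 and 0.0577, 0.0395 and 0.0417, and 0.0247 and 0.0256. On the higher side stood ZNF619 (1.46), ZNF358 (1.15) and ZNF48 (1.04). The A771726 libraries of ZNF619 had 0.0137 and 0.0249. It was the one member of 135 with all 4 compound libraries above both DMSO libraries, a pattern of 1.3% of all genes. The same compound values had brought it to the density minimum.

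Both A771726 libraries were below both DMSO libraries for 75 of the 135 members and above for 1, where 55.4% and 2.19% of all genes were. limma with Benjamini-Hochberg adjustment called none of the 135 members and 0.0% of all genes. Unadjusted p was under 0.05 for 29 members, 1 of them higher, which is 21.5% beside 22.1% of all genes. The smallest adjusted p of a member was 0.119, for ZNF498, whose limma log2 change was -1.73 (95% interval -2.48 to -0.99). ZNF107 came next at -1.60 (-2.36 to -0.84, adjusted p = 0.121 by limma), then ZNF304 at -2.17 (-3.35 to -0.99, adjusted p = 0.121 by limma). ZNF419, ZNF121, ZNF696, ZNF417 and ZNF619 completed the 8 members with the smallest p whose libraries were apart. Over the 101 members with the library known, 23 (22.8%) had an unadjusted p under 0.05 in limma, beside 22.0% of all such genes. With each library centred on its median there were 6 (5.94%), beside 8.31%. The members' median limma log2 change was -0.63 uncentred. It was -0.56 without the first DMSO library, -0.71 without the second, -0.72 without the first A771726 library and -0.46 without the second. Over all such genes it was -0.54 uncentred, and then -0.46, -0.65, -0.66 and -0.38 in the same order. Without the first A771726 library, limma called 18 of all 3405 genes and 0 of the 101 members, whose smallest adjusted p was then 0.0526; over all settings tried that p lay between 0.0526 and 0.5.

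**Figure D2:**
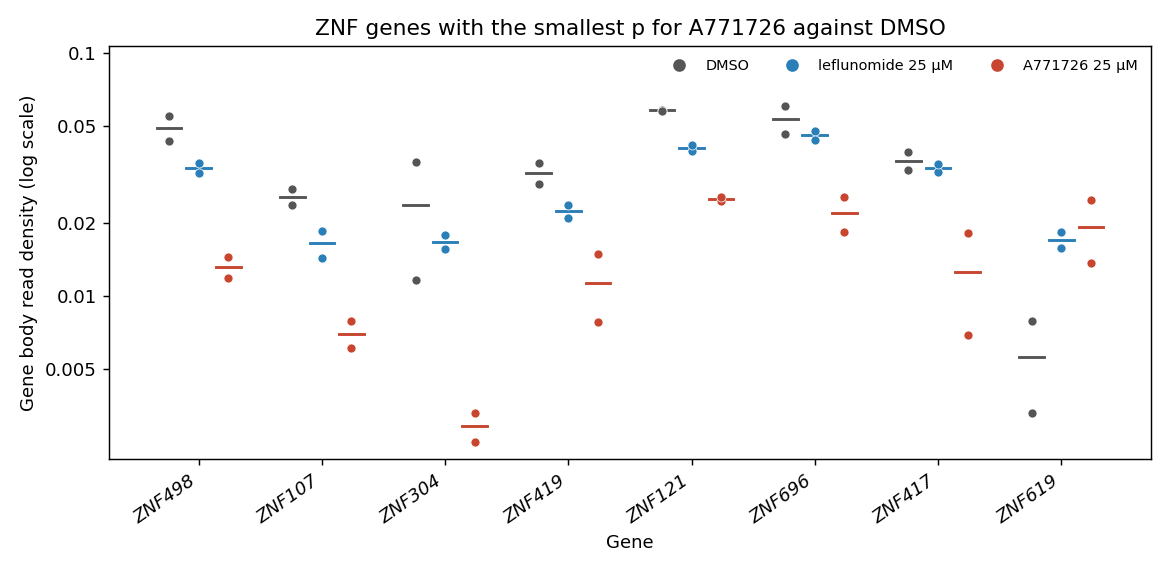
Gene body read density (log axis) of the 8 ZNF genes with the smallest limma p for A771726 against DMSO among those whose libraries do not overlap, with points for the libraries and bars for the group means. For 7 of the 8 genes the A771726 points lie below both DMSO points, and for ZNF619 above them.

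Between the compounds at the same dose and time, gene body density was lower with A771726 in most members, as in most genes. The median log2 change was -0.49, beside -0.47 over all genes. Lower by 2-fold or more were 29 members and higher by as much 0, where 12.4% and 0.942% of all genes were. The lowest was ZNF530 at -2.75, with group means of 0.0184 under leflunomide and 0.00085 under A771726, and then ZNF22 (-2.03), ZNF699 (-1.97) and ZNF304 (-1.89). ZNF530 and ZNF304 met the density minimum only through the groups other than A771726. The highest was ZNF192, now ZKSCAN8, at 0.98, with 0.0103 and 0.005 under leflunomide and 0.0158 and 0.0186 under A771726. ZNF192 was the one member of 135 with both A771726 libraries above both leflunomide libraries, where 2.4% of all genes were, and 61 members had both below, where 55.2% of all genes did. limma with Benjamini-Hochberg adjustment again called no member and 0.0% of all genes, with a smallest member adjusted p of 0.315. At an unadjusted p under 0.05 were 18 members (13.3%), none of them higher, beside 15.5% of all genes. Over the 101 members with the library known there were 13 (12.9%), beside 15.4% of all such genes. After centring there were 6 (5.94%), 2 of those higher, beside 5.64%. The median limma log2 change of these 101 members was -0.48 uncentred. It was -0.45 without the first leflunomide library, -0.54 without the second, -0.54 without the first A771726 library and -0.31 without the second. For ZNF498 the difference between the compounds was -1.23 on the log2 scale by limma (95% interval -1.97 to -0.48), and for ZNF619 it was 0.11 (-0.91 to 1.14). Leflunomide and A771726 were each compared with the same DMSO samples, so the contrasts share them. Libraries that stepped down from DMSO to leflunomide to A771726 without overlap belonged to 12 of 135 members, beside 9.67% of all genes: ZNF16, ZNF79, ZNF107, ZNF121, ZNF197, ZNF384, ZNF398, ZNF419, ZNF436, ZNF498, ZNF552 and ZNF672.

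**Figure D3:**
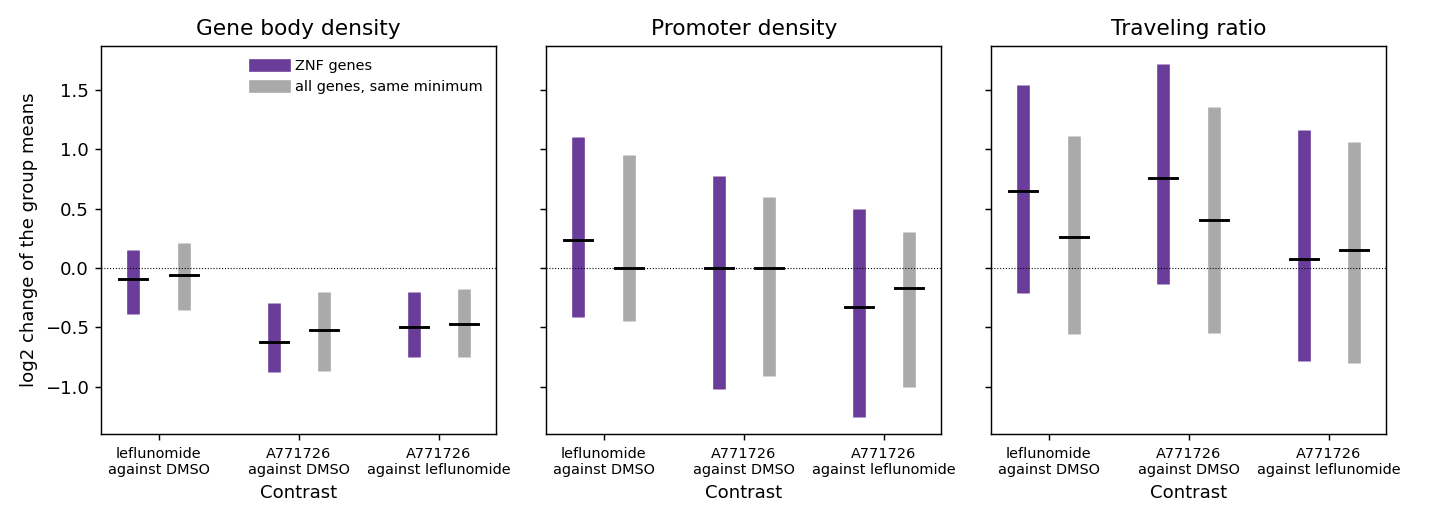
log2 change of the group means in each contrast for gene body density, promoter density and traveling ratio, with bars from the lower to the upper quartile and black lines at the median. ZNF genes and all genes lie close together for gene body density, and the ZNF median of the traveling ratio against DMSO is 0.65 under leflunomide and 0.76 under A771726, above the 0.26 and 0.40 of all genes.

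At the promoter the members had a median density of 0.0479 in DMSO, 0.0723 under leflunomide and 0.0481 under A771726. Promoter density was 0 for 38 members in DMSO, 26 under leflunomide and 43 under A771726. These were 17.4%, 11.9% and 19.6% of the members, beside 24.5%, 18.7% and 23.8% of all genes. On the log2(value + 0.01735) scale the median change was 0.24 for leflunomide against DMSO, beside 0 over all genes. Higher by 2-fold or more were 66 members and lower by as much 33, where 24.3% and 14.4% of all genes were. For A771726 against DMSO the median was 0 in both sets, with 45 members higher by 2-fold or more and 57 lower, where 15.6% and 23.9% of all genes were. A771726 against leflunomide gave -0.33, beside -0.17 over all genes, with 34 and 76 members past 2-fold, where 10.7% and 26.9% of all genes were. The added 0.01735 is below the value of 1 read in every library, so 1 read can decide a 2-fold count. Against a density of 0, a lone DMSO read (0.0438 or 0.052 in its library) passes 2-fold. A lone A771726 read (0.0241 or 0.0313) does not. The counts of higher and lower members are thus uneven between groups, as are those of all genes.

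Among members with more promoter reads, ZNF223 was highest for leflunomide against DMSO (2.06), with 0.0875 and 0 in the DMSO libraries and 0.173 and 0.301 under leflunomide. ZNF526 had 0.131 and 0.0837 in DMSO and 0.312 and 0.526 under leflunomide, without overlap. ZNF697 was lowest (-2.18), with 0.241 and 0.052 in DMSO, 0 and 0.0376 under leflunomide and 0.12 and 0.565 under A771726. ZNF324 was lowest for A771726 against DMSO (-2.68), with 0.131 and 0.520 in DMSO and 0.0722 and 0 under A771726, while its gene body density differed little between the groups. ZNF581, a neighbour of ZNF580, was highest there (2.21), with 0.0811 and 0 in DMSO and 0.249 and 0.250 under A771726. In the libraries, 29 of 135 members had both leflunomide values above both of DMSO and 11 below, where 16.5% and 10.9% of all genes did. For A771726 against DMSO these were 18 and 22 members, where 10.3% and 16.5% of all genes did so, and for A771726 against leflunomide 14 and 35, where 7.98% and 22.2% did. The median of leflunomide against DMSO was 0.11 with a pseudocount 5 times larger, 0.15 with a minimum density of 0.02 and 0.15 with none. That of A771726 against leflunomide was -0.17 with the larger pseudocount, -0.14 with no minimum and -0.16 relative to the median of all genes, and that of A771726 against DMSO was -0.17 with the minimum of 0.02. The medians also moved when single libraries were left out, over the 101 members with the library known. Without the first DMSO library, the median promoter change was 0.75 for leflunomide and 0.76 for A771726 against DMSO, and without the first A771726 library it was -0.85 against DMSO and -0.90 against leflunomide. In limma fits of promoter density, 0 of 135 members were called in any contrast, where 0.253%, 0.316% and 0.0% of all 4752 genes were called for leflunomide against DMSO, A771726 against DMSO and A771726 against leflunomide. Unadjusted p in limma was under 0.05 for 1, 0 and 1 members, where 2.46%, 3.83% and 2.59% of all genes were.

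A promoter density above 0 in every group was found for 145 members, and 142 of these had a finite traveling ratio in every group. Members with a promoter density of 0 in a group are thus left out of the ratio medians and changes. The same condition left 5066 of all genes. The medians of the 142 members were 2.6 in DMSO, 3.76 under leflunomide and 4.0 under A771726. All deposited rows had a DMSO ratio of at most 7.5, a limit that the compound groups do not share, so a comparison with DMSO is bounded on one side for every gene. Over all 219 members, 39 stood above 7.5 under leflunomide (17.8%) and 47 under A771726 (21.5%), 3 of the 47 with an infinite ratio. Of all 8279 genes 10.1% and 14.6% did. The median log2 change for leflunomide against DMSO was 0.65, beside 0.26 over all genes, with 57 members higher by 2-fold or more and 20 lower, where 27.6% and 15.4% of all genes were. Under A771726 it was 0.76, beside 0.40, with 60 and 17 members past 2-fold, where 34.3% and 17.2% of all genes were. Between the compounds it was 0.08, beside 0.15, with 42 and 30 members, where 26.8% and 20.9% of all genes were. Without the first A771726 library these medians were 1.62 against DMSO and 0.54 against leflunomide. Without the second DMSO library the median of leflunomide against DMSO was 0.34. These values cover only members with the library known whose remaining ratios were above 0. In the second A771726 library 35.6% of the 101 such members had a promoter density of 0, so 1.62 describes a part picked for promoter reads. With the same omission the promoter median over all 101 was -0.85 against DMSO. Relative to the median of all genes, the difference between the compounds was -0.07, the opposite direction.

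ZNF581 had the largest difference of the ratio, 6.36 on the log2 scale for A771726 against DMSO, from mean ratios of 0.403 in DMSO, 1.47 under leflunomide and 33.1 under A771726. One of its A771726 libraries had a gene body density of 0.004 and the other 0.0706, so the mean ratio rests on the first. ZNF181 was similar, with ratios of 2.75, 14.8 and 94.9 and A771726 gene body densities of 0.0171 and 0.0017. ZNF107 had 5.20, 3.24 and 19.8, with both gene body and promoter read in all its libraries. ZNF324 went the other way, with 3.31, 0.855 and 0.514. The limma fits took the ratio of each library as log2(promoter + 0.01735) minus log2(gene body + 0.0022) and kept promoter values of 0. Their p-values thus do not belong to the changes of the deposited mean ratios given above. These fits called none of the 135 members and 0.0% of all genes in each contrast. For leflunomide against DMSO, 5 members had an unadjusted p under 0.05, all higher, where 2.78% of all genes had one. For A771726 against DMSO there were 10, all higher, where 4.8% of all genes had one, and between the compounds 7, of which 6 were higher, where 2.71% had one. The smallest adjusted p of a member by limma was 0.401, for ZNF581 for A771726 against DMSO.

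Libraries of one group differed at the promoter. Among the 101 members whose library was known in every group, promoter density was 0 in 8.91% and 28.7% of members in the DMSO libraries, in 5.94% and 13.9% under leflunomide and in 5.94% and 35.6% under A771726. Over all 3405 such genes it was 7.61% and 31.4%, 7.87% and 13.5%, and 6.64% and 30.2%. The members' median traveling ratio was 3.11 and 1.93 in the DMSO libraries, 3.13 and 4.2 under leflunomide and 4.53 and 3.33 under A771726. Over all 3405 such genes it was 2.8 and 1.67, 2.95 and 2.52, and 3.12 and 2.36. The second library was thus the lower in DMSO and under A771726 in both sets, and under leflunomide only over all genes. The part of this library difference in the promoter and ratio results was not tested. Median gene body density lay closer within groups, at 0.031 and 0.0292, 0.028 and 0.0249, and 0.0186 and 0.0168.

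**Figure D4:**
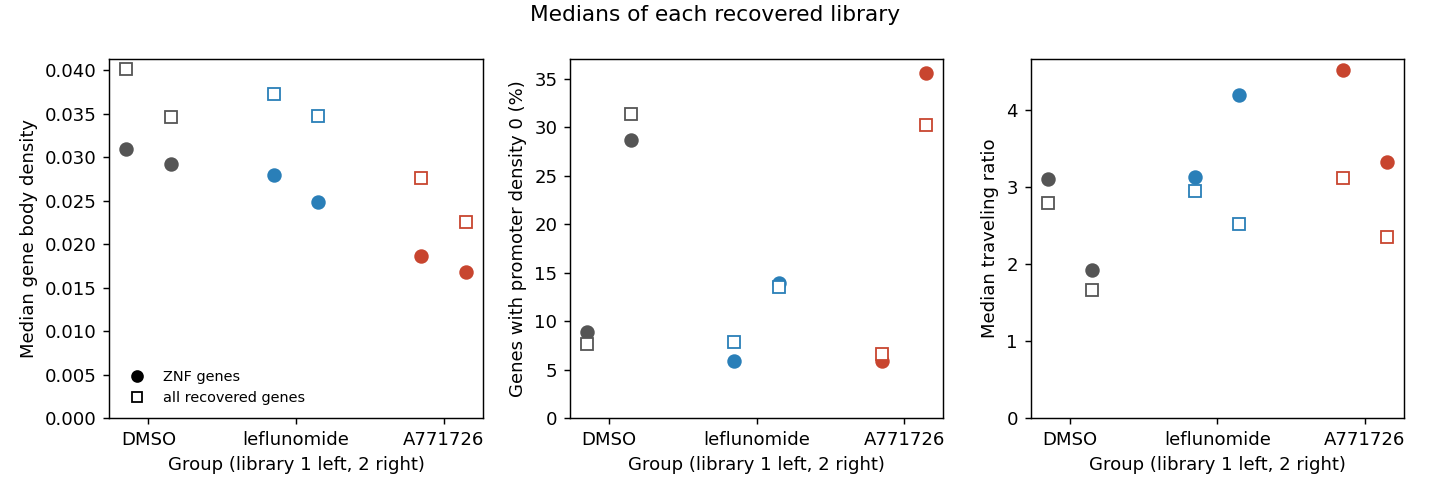
Median gene body density, share of genes with a promoter density of 0 and median traveling ratio in each recovered library, for the 101 ZNF genes (filled circles) and all 3405 genes (open squares) with the library known. Both A771726 libraries have the lowest gene body medians, and the second library of DMSO and of A771726 has the largest share of promoters at 0.

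Of the listed transcription and promoter regulators, 16 of 26 were at the minimum, and their median gene body change was 0.06 under leflunomide and -0.46 under A771726. ZNF384, a transcription factor gene known from leukemia fusions, had 0.059 and 0.0653 in DMSO, 0.0413 and 0.0315 under leflunomide and 0.0261 and 0.0313 under A771726. Its 3 groups did not overlap, and limma gave -1.06 for A771726 against DMSO (95% interval -1.82 to -0.30, adjusted p = 0.161). ZNF687, which forms a complex with ZNF592 and ZMYND8, had 0.105 and 0.102 in DMSO, 0.0677 and 0.0771 under leflunomide and 0.047 and 0.0733 under A771726. Its DMSO libraries were the highest and those of the compounds overlapped. ZNF217, an amplified oncogene in breast cancer, had 0.0547 and 0.0433, 0.05 and 0.0487, and 0.0329 and 0.0451, with its A771726 libraries below those of leflunomide and its DMSO libraries overlapping both. ZNF644, a partner of the methyltransferases G9a and GLP, had 0.0139 and 0.0212 in DMSO, 0.0178 and 0.0201 under leflunomide and 0.0087 and 0.009 under A771726, the lowest of its groups. ZNF281, a regulator in stem cells, had group means of 0.0455, 0.06 and 0.0327. ZNF395 was 2-fold lower under A771726 (-1.05), and the changes of ZNF219, ZNF292, ZNF335, ZNF516, ZNF532, ZNF592, ZNF609, ZNF703, ZNF76 and ZNF827 lay between -0.71 and -0.14.

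Of the genes for proteins that act on RNA, translation or cell division, 5 of 9 were at the minimum, with median log2 changes of 0.0015 under leflunomide and -0.60 under A771726. ZNF598, the ubiquitin ligase that marks collided ribosomes, had group means of 0.0446, 0.0446 and 0.0453. Its log2 change of 0.02 under A771726 stood beside -0.52 for the median of all genes. ZNF638, a nuclear protein of RNA processing and silencing, had 0.029 and 0.0244 in DMSO, 0.0291 and 0.0283 under leflunomide and 0.0172 and 0.0137 under A771726. ZNF706 had 0.0673 and 0.0488, 0.0534 and 0.0539, and 0.0357 and 0.0382. In both genes the A771726 libraries were the lowest. ZNF326, a subunit of the DBIRD complex that links polymerase to splicing, and ZNF346, a binder of double-stranded RNA, had log2 changes under A771726 of -0.60 and -0.36.

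Of the KRAB repressors with known targets, 6 of 9 were at the minimum. ZNF274, which lies at the ends of zinc finger genes and recruits SETDB1 there, had group means of 0.0252, 0.0221 and 0.0180. ZNF93, a repressor of LINE-1 elements, had 0.0196, 0.0209 and 0.0075, a log2 change of -1.17 under A771726. ZNF282 had 0.0469, 0.0431 and 0.0191 (-1.21), ZNF202, a regulator of lipid genes, had -0.77, and ZNF445, which protects imprinted regions, had -0.23. ZNF649 was higher with both compounds, at 0.0051 and 0.014 in DMSO, 0.0158 and 0.0232 under leflunomide and 0.0117 and 0.0233 under A771726, and its DMSO and A771726 libraries overlapped. With a DMSO mean of 0.00955, ZNF649 too met the density minimum only through the compound groups.

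Of the KRAB silencing machinery, 19 of 30 listed symbols were at the minimum, with median gene body changes of -0.15 under leflunomide and -0.52 under A771726, and limma called 0 of all genes tested in these contrasts. TRIM28 had group means of 0.177, 0.153 and 0.127, and SETDB1 0.0522, 0.0465 and 0.0348. At least 1.5-fold lower for A771726 against DMSO were 3 of the 19, where 45.0% of all genes were: MTA2, a NuRD subunit, at -1.29, MORC2, which works with the HUSH complex, at -1.04, and CBX3, an HP1 protein, at -0.78. Against leflunomide there were 4 of the 19, where 39.1% of all genes were: MTA2 (-1.09), MORC2 (-1.01), RBBP7 (-0.75) and RBBP4 (-0.65). Under leflunomide 0 of the 19 were 1.5-fold lower or higher than in DMSO, where 13.4% and 7.53% of all genes were. Higher by 1.5-fold under A771726 were 0 of the 19 against either group, where 2.67% of all genes were against DMSO and 2.79% against leflunomide. The related ZFP, ZSCAN, ZKSCAN and ZBTB genes, 31 at the minimum, had median gene body changes of -0.01 under leflunomide, -0.57 under A771726 and -0.47 between the compounds.

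What the members share in their coding sequence was read from the longest reading frame of GENCODE 29 transcripts, present for 213. The codons of the linker between fingers stood in 144 of these (67.6%) and in 1.04% of 6277 other genes at the same minimum. ZNF721 had 19 copies, ZNF84 had 16 and ZNF107 had 13. Codons of the KRAB box were searched in the first 750 bases of the frame with 3 patterns. A stricter pattern matched 56 members (26.3%) and missed known KRAB genes, so a longer one, which matched 10 members and was dropped, and then a wider one were tried. The wider one matched 84 members (39.4%) and 0.271% of the other genes. It still missed ZNF12, ZNF202, ZNF282 and ZNF445, so a member without a match may have the box. By the wider pattern the median gene body change for A771726 against DMSO was -0.67 with a match and -0.56 without, and by the stricter one it was -0.63 and -0.60. For A771726 against leflunomide these were -0.54 and -0.44 by the wider pattern and -0.52 and -0.47 by the stricter one. The size of the gap thus depended on the pattern, and it was not tested. Members with a match of the wider pattern had a median mean density of 0.0162, and those without 0.0249.

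Of 214 members placed in RefSeq's gene order (GRCh38.p14), 78 stood next to another member, and 8 runs of 3 or more held 30 members. Members next to another had a median change for A771726 against DMSO of -0.62, and the others of -0.62. At the promoter their medians were -0.43 and 0.07 for A771726 against DMSO, -0.84 and -0.13 for A771726 against leflunomide, and 0.32 and 0.18 for leflunomide against DMSO. These splits were not tested. The longest runs held 5 genes. In the run from ZNF419 through ZNF773, ZNF549 and ZNF550 to ZNF416 the median was -0.98, with single genes from -1.34 to -0.08. In the run from ZNF524 through ZNF865, ZNF784 and ZNF581 to ZNF580 it was -0.33, with genes from -1.67 to 0.03. ZNF587, ZNF814 and ZNF417 had -1.16, from -1.38 to -0.61.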

How the data were processed

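Nascent RNA of 6 A375 samples was measured by GRO-seq. Per the submitters' processing notes, Bowtie 0.12.9, bedtools and the build hg18 were used. Not given in the sources used here: window limits, scaling between libraries and the handling of repeated matches. The authors deposited the mean signal (promoter and gene body read density) of each group, and the deposited traveling ratio is the mean of the libraries' ratios, per the file headers and the values. The headers write A771762, read here as A771726. The members and lists were chosen with earlier results of these data known.

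From the means, libraries were recovered in Python 3.11.15: with densities of 4 decimals, a pair of libraries must give both sums and the mean ratio. A gene body pair was found in 97.6% of usable rows for DMSO, 97.9% for leflunomide and 98.4% for A771726. Other rows than those on whole reads had a solution in 100.0% of cases, and in 4.4%, 4.4% and 2.4% after a slight shift of the ratio. The recovery was worked out after the tables had been seen, and its first form, which used whole reads only, solved fewer rows. Library densities were tested on the log2 scale with limma 3.58.1 (R 4.3.3; trend and robust, all groups in one fit, Benjamini-Hochberg adjustment over all genes, threshold 0.05). The pseudocounts were the 10th percentile of values above 0. Both steps were run on simulated data, with outcomes not reported here. The limma simulation took its spread from the DMSO libraries and changed a small part of the genes. It therefore does not show how limma behaves where most genes shift together. The limma fits of promoter density and traveling ratio were added after the gene body fits had been seen.

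Members named were the 10 densest, the 8 highest and lowest gene body changes and 8 smallest p with groups apart per contrast, the 4 highest and lowest promoter and ratio changes at or above the 70th percentile of promoter density, those around the minimum, and members of the role lists. A subset of these is printed. Named outside these rules, after their values were seen, were the 12 members whose libraries stepped down over the groups, the members of the longest runs of neighbours and of the run from ZNF587 to ZNF417, the members with many linkers, and those that the KRAB pattern missed. Of the members, 210 matched RefSeq by accession, 7 by symbol, and 2 did not. Groups by protein features were planned from protein sequences. These were not used here, and the codon patterns were added in their place, with the KRAB pattern chosen by which genes it matched.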

Additional observations from a re-analysis of the deposited data

How the results depend on the processing

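The medians rest on 2 libraries a group and on group means, and promoter values on few reads. Of the alternatives for the members' medians, 80 moved by less than 1 SD of the library medians, 18 by more and 1 reversed. With a pseudocount 5 times larger, the gene body medians were -0.419 for A771726 against DMSO and -0.3597 against leflunomide. Relative to the median of all genes they were -0.0984 and -0.0214, and the traveling ratio medians 0.3521 and -0.072, the last a reversal by construction, since all genes had the larger median. Over members at the minimum in every group, the gene body median of A771726 against DMSO was -0.521. Leaving out each library in turn, over the 101 members with the library known, gave gene body medians from -0.1751 to -0.0599 for leflunomide against DMSO, -0.7385 to -0.4776 for A771726 against DMSO and -0.5612 to -0.351 between the compounds. Promoter medians ran from 0.1571 to 0.7453, -0.8509 to 0.7609 and -0.9032 to -0.1511 in the same order. Ratio medians ran from 0.342 to 0.7263, 0.4935 to 1.6166 and 0.0387 to 0.5427. For the ratio, members with a value of 0 in a group after the omission were left out. The members behind a ratio median could thus be fewer than 101 and differ between omissions. The causes were not tested. limma called 0 members under all 30 alternatives, and a lone library left in a group was assumed to vary like the others. The settings with genes or members whose library is known, and with members at the minimum in every group, were chosen after seeing the data. No paired analysis was possible because the deposited columns carry no replicate letters.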
